A study of Mus musculus with 108 samples.

Results

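The brains of 129S2 and AKR/J mice were compared with those of C57BL/6J, A/J, C3HeB/FeJ and DBA2/J mice. The members are the 6 brain arrays whose titles carry the code of 129S2 or AKR/J, 3 of each strain, in a series of 6 strains and 6 tissues with 3 arrays for every combination. The 12 brain arrays of the other 4 strains, 3 of each, were the comparison. All mice were males of 11 to 14 weeks from inbred strains. Per the series' design text, 129S2 came from Charles River and the other 5 strains from The Jackson Laboratory, so for 129S2 the supplier and the strain cannot be told apart. RNA of whole brain was hybridised to Affymetrix mouse expression arrays, and the values are log2 signals. The study also measured heart, kidney, liver, lung and testis of the same strains.

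Inbred strains are homozygous lines that differ from one another at many genes, and 129S2 belongs to a family of strains long used as a source of mouse embryonic stem cells, while AKR/J is known for its high rate of thymic lymphoma. Whole brain RNA is a mixture of neurons, astrocytes, oligodendrocytes, microglia, vessel cells and the choroid plexus, the epithelium that makes cerebrospinal fluid. An expression array reads each gene through short probes designed on a reference sequence, so a sequence difference between strains under a probe can change its signal without a change in transcript level.

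The strain pair was pooled because one array of each strain lay between them. The labels conflict for 129S2 brain, where the titles number the animals 1, 2 and 3 and the source names number them 3, 1 and 2. In kidney, array 129S2 4 carries individual 3 in its source name, as array 129S2 3 does, so by source names 2 of the 3 kidney arrays of 129S2 would share an animal. Titles were used throughout. The titles name single animals, while the labelling protocol speaks of pools. The tissue label held: the mean log2 signal of Snap25, Syt1, Mbp, Gfap and Nefl, which neurons, oligodendrocytes and astrocytes express, was 12.38 to 12.53 on the 6 arrays of 129S2 and AKR/J and 12.35 to 12.53 on the 12 others. Marker lists of the 5 other tissues averaged 4.65 to 7.67 on the brain arrays. Medians of the brain arrays were 6.40 to 6.44, and the number of arrays limits the precision of every value. In the other tissues array medians ran from 4.95 in liver to 6.83 in lung, so signal levels of different tissues may not share 1 scale.

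After each gene's mean over the 18 brain arrays was subtracted, array 129S2 2 correlated across genes at 0.12 and 0.15 with the other arrays of its strain and at 0.45 with array AKR/J 1. Array AKR/J 2 correlated at 0.15 and 0.18 with its own strain and at 0.45 with array 129S2 2. By contrast, the 129S2 arrays 1 and 3 correlated at 0.57, the AKR/J arrays 1 and 3 at 0.49, and arrays within each of the other strains at 0.48 to 0.72. These values are descriptions across genes, which are not independent replicates.

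The place of each array between the strains was read from 12 genes whose 129S2 and AKR/J signals differed by at least 1 log2 unit in each of the 5 other tissues. On a linear signal scale with the 129S2 arrays 1 and 3 at 0 and the AKR/J arrays 1 and 3 at 1, array 129S2 2 had a median position of 0.761 and array AKR/J 2 one of 0.420. Among these genes, H2-K1, a class I antigen-presenting molecule, had 8.75, 7.56 and 8.70 on the 129S2 arrays 1, 2 and 3 and 6.63, 8.31 and 7.05 on the AKR/J arrays 1, 2 and 3. The second array of each strain lay nearer to the other strain than its own replicates did. Of 54 genes that differed by at least 0.5, 43 were used for each of these 2 arrays. Their medians were 0.699 for 129S2 2 and 0.396 for AKR/J 2. Neither array matched either strain on these genes, so results on the pooled pair are given with and without both, and their cause was not tested.

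**Figure D1:**
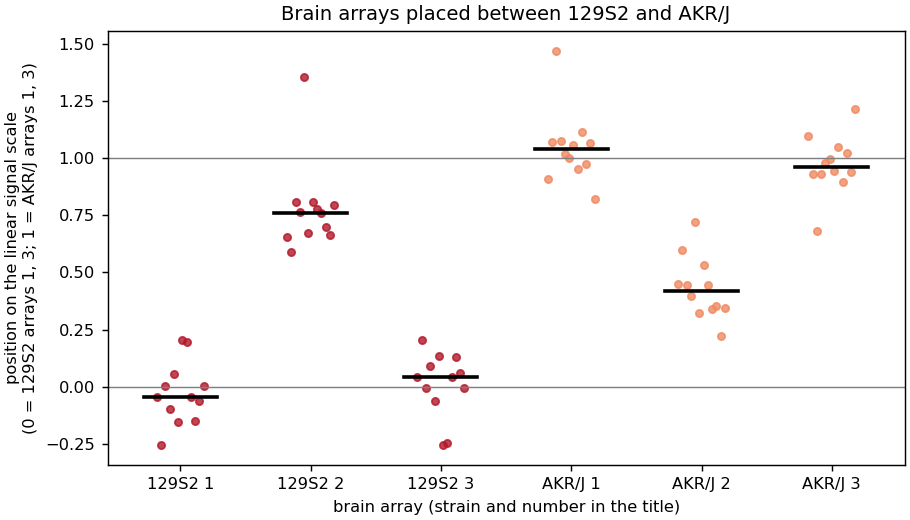
Position of each 129S2 and AKR/J brain array between the strains on the linear signal scale (0 is the mean of the 129S2 arrays 1 and 3, 1 that of the AKR/J arrays 1 and 3). Each point is 1 of 12 genes that separate the strains in 5 other tissues and each bar is the median, at 0.761 for array 129S2 2 and 0.420 for array AKR/J 2.

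The first question was which genes set 129S2 and AKR/J brain apart from the other strains. In limma, 1736 of 18194 genes (9.54%) had an adjusted p under 0.05, of which 872 (4.79%) were higher in 129S2 and AKR/J and 864 (4.75%) lower. Most differences were small, with a median size of 0.195 log2 units, and 125 of the 1736 reached 0.5 and 21 reached 1, 10 of these higher and 11 lower. The median difference of all genes was 0.011. Without arrays 129S2 2 and AKR/J 2 the count was 1840 (10.1%), and 1391 of the 1736 genes were kept.

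That fit takes the 6 strains as they are, so its p-values measure the spread between arrays of a strain. When the strain was instead a random block, the spread between strains within each group counts as error, that between 129S2 and AKR/J included. In that fit 81 genes (0.445%) had an adjusted p under 0.05 in limma, 30 higher and 51 lower, and all 81 were among the 1736. A stricter set was therefore used for single genes, those whose 6 values in 129S2 and AKR/J all lay outside the range of the 12 others. It held 107 of the 1736 genes (0.588% of all genes tested), 45 higher (0.247%) and 62 lower (0.341%). Of these 107, 58 also had an adjusted p under 0.05 with strain as the block, and 101 kept theirs when each of the 4 strains was left out in turn. Among all 1736 genes, 594 kept theirs in that check. Since the 107 lie outside the range of every other strain, the count of 101 is partly set by their choice. The 15 with the largest differences in each direction are described next, grouped by what they encode. All 30 kept an adjusted p under 0.05 without arrays 129S2 2 and AKR/J 2, and 26 did with strain as the block. These counts too are partly set by the choice of the 30 for large differences on these arrays. Of the 30, 19 genes have further probe sets, which for 10 of them moved the same way and for Scn2b and Sdc4 the opposite way, with an adjusted p under 0.05.

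The largest difference of all was in a sodium channel gene. Scn2b, which encodes an auxiliary beta subunit of the voltage-gated sodium channel of neurons, had 5.85, 5.12 and 6.23 in 129S2 and 4.71, 6.12 and 5.62 in AKR/J, against a lowest value of 11.38, a median of 11.57 and a highest of 11.82 in the other strains. The groups lay about 5 log2 units apart at their nearest. The difference was -5.97 ± 0.163 (SE; adjusted p = 1.18e-13, limma). No fold is given, because the level in 129S2 and AKR/J lay in the range of this probe set in the non-brain tissues of all strains, 4.58 to 6.31 by group mean, where a signal cannot be told from background. Another probe set of Scn2b was as bright in both groups, at 11.23 ± 0.247 in 129S2 and AKR/J and 11.24 ± 0.0787 in the other strains (SD, n = 6 and 12). A further, dim one was higher in 129S2 and AKR/J by 0.41 (limma, adjusted p = 0.000246 over probe sets). The loss of signal was therefore seen by 1 of the gene's 3 probe sets, and which of them follows the transcript was not tested.

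Among the 12 sodium channel genes tested, the other gene to pass was Scn3a, the pore-forming Nav1.3 subunit, which was lower by a difference of -0.15 (limma, adjusted p = 0.0027). Scn1a, Scn2a and Scn8a, the main pore-forming subunits of adult brain, had differences of 0.07, 0.02 and 0.03 that did not pass, and the list's median was 0.010, with 16.7% of its members passing against 9.54% of all genes.

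Grik1, which encodes the kainate-type glutamate receptor subunit GluK1, had 4.87, 4.57 and 4.77 in 129S2 and 4.38, 4.94 and 4.66 in AKR/J. The other strains ranged from 6.36 to 6.83 with a median of 6.57, so the groups did not overlap. The difference was -1.89 ± 0.0758 (SE; adjusted p = 2.24e-11, limma). Its other probe set averaged 6.61 ± 0.136 in 129S2 and AKR/J and 6.57 ± 0.132 in the other strains (SD, n = 6 and 12), a difference of 0.03 that did not pass.

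Of the 23 glutamate receptor and transporter genes tested, 1 was higher and 3 were lower, 17.4% against 9.54% of all genes, and the median was -0.03. Without arrays 129S2 2 and AKR/J 2 they were 1 and 2. Slc17a7, the vesicular glutamate transporter of cortical neurons, was higher by 0.35 and Grm7, a presynaptic metabotropic receptor, was lower with a difference of -0.29 (limma, adjusted p = 0.00335 and 0.000777). The Grm7 probe set brightest in brain differed by -0.05 and did not pass, while a dimmer one differed by -0.87 and passed. Slc17a7 overlapped widely, with 10.46 to 11.07 in 129S2 and AKR/J and 9.64 to 11.07 in the other strains.

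Potassium channel genes were the longest of the channel lists, with 4 of 49 higher and 9 lower (26.5% against 9.54% of all genes) and a median of -0.01. Without arrays 129S2 2 and AKR/J 2 they were 3 and 8, and 1 gene passed with strain as the block. That gene was Kcnj6, the GIRK2 inward rectifier opened by G proteins, at 5.79 to 6.18 (median 6.04) in 129S2 and AKR/J and 6.24 to 6.72 (median 6.47) in the other strains, a difference of -0.45 (limma, adjusted p = 0.000436). Its other probe sets, all dimmer, differed by 0.06, -0.01, 0.03 and 0.15 and did not pass. The groups did not overlap for Kcnj6 or for Kcnk2, the mechanically gated leak channel TREK-1, whose difference was -0.21 (limma, adjusted p = 0.000578). Kcnj16, an inward rectifier of glia, differed by -0.64 and overlapped, since its 6 values spread from 6.60 to 7.81. Kcna1, an axonal delayed rectifier, and Kcnab3, an auxiliary subunit, were higher by 0.10 and 0.22.

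Kcne2, an auxiliary potassium channel subunit found in the choroid plexus, was lower with no overlap, at 5.31 to 5.81 in 129S2 and AKR/J and 5.90 to 6.50 in the other strains (difference -0.60, limma, adjusted p = 0.000132). Of 26 genes of synaptic vesicles and release, 4 were higher and 3 lower (26.9% against 9.54% of all genes), with a median of 0.011, and as many without arrays 129S2 2 and AKR/J 2. Vamp1, a vesicle SNARE of fast synapses, was higher by 0.34 and Syt4, a synaptotagmin, was lower with a difference of -0.33 (limma, adjusted p = 0.00156 and 0.00124). Cplx1, a complexin that clamps vesicle fusion, was higher by 0.15, and its values of 12.71 to 12.76 in 129S2 and AKR/J lay above the 12.49 to 12.66 of the other strains. For GABA signalling, 2 of 18 genes were higher (11.1% against 9.54% of all genes), the receptor subunits Gabra2 and Gabrb2, and neither passed without arrays 129S2 2 and AKR/J 2. In Gabra2, C57BL/6J stood apart with a mean of 7.47, and all other strains, 129S2 and AKR/J included, had 8.54 to 8.90. In Gabrb2, DBA2/J stood apart with 10.21, and all other strains had 10.59 to 10.71.

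**Figure D2:**
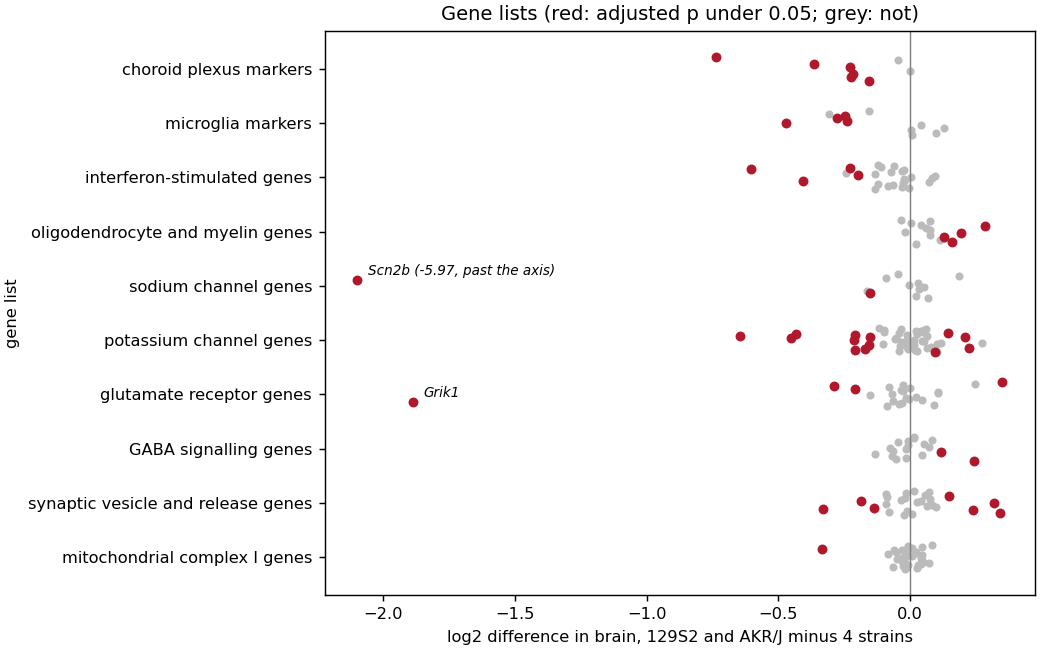
Log2 differences in brain, 129S2 and AKR/J minus the 4 other strains, for the members of 10 gene lists; red points have an adjusted p under 0.05 and grey points do not. Scn2b at -5.97 is drawn at the left edge, past the end of the axis, and Grik1 lies at -1.89.

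Several genes of the cell surface and the matrix were in the set without overlap. Sdc4, the heparan sulfate proteoglycan syndecan 4, had 10.10, 10.31 and 10.04 in 129S2 and 10.39, 10.26 and 10.18 in AKR/J, against 7.67 to 8.19 with a median of 7.91 in the other strains. All 6 arrays lay about 2 log2 units above the rest. The difference was 2.31 ± 0.0497 (SE), 4.94-fold higher (adjusted p = 3.4e-15, limma). Its second probe set went the other way, averaging 7.46 ± 0.511 in 129S2 and AKR/J and 8.44 ± 0.342 in the other strains (SD, n = 6 and 12), a difference of -0.99 (limma, adjusted p = 5.6e-05 over probe sets). The direction for Sdc4 thus depends on the probe set read.

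Pcdhb9, a clustered protocadherin of neuronal surfaces, had 6.48, 5.86 and 5.98 in 129S2 and 5.99, 6.32 and 6.39 in AKR/J. The other strains ranged from 8.05 to 8.94 with a median of 8.42, well clear of the pair. The difference was -2.28 ± 0.0736 (SE; adjusted p = 9.68e-13, limma). Pcdhb9 has 1 probe set and close relatives in its cluster, whose signals may not be separable.

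Mmp16, a membrane-type metalloprotease, was even within each group, at 7.67 to 7.77 in 129S2 and AKR/J and 8.32 to 8.61 in the other strains. Its difference was -0.72 ± 0.0394 (SE; adjusted p = 1.98e-09, limma), and 2 of its 3 other probe sets were also lower, with differences of -0.44 and -0.70. Pdgfd, a platelet-derived growth factor, had 4.12 to 4.54 in 129S2 and AKR/J and 5.24 to 6.00 in the other strains (difference -1.19). Its 2 other probe sets, both dim, differed by 0.12 and -0.02 and did not pass.

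Anxa5, annexin A5, a calcium-dependent binder of phosphatidylserine, was nearly constant on the 6 arrays, at 10.71 to 10.81, against 9.75 to 10.28 in the other strains. It was higher by 0.71 ± 0.0395 (SE; adjusted p = 2.64e-09, limma). Sbspon, a thrombospondin-repeat matrix protein, had 5.04 to 5.56 in 129S2 and AKR/J and 4.22 to 4.73 in the other strains, a difference of 0.83 that its second probe set shared at 0.88.

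**Figure D3:**
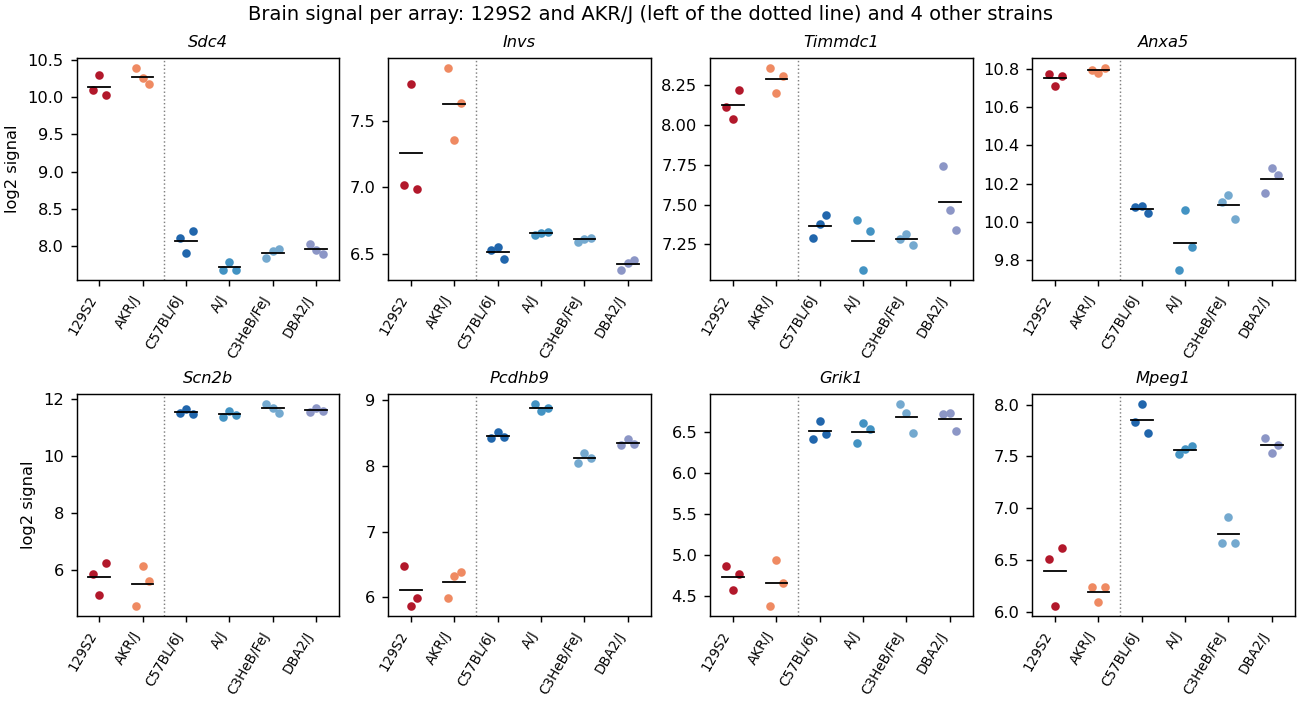
Log2 brain signal on every array for 4 genes higher (top) and 4 genes lower (bottom) in 129S2 and AKR/J, left of the dotted line, than in the 4 other strains; bars are strain means of 3 arrays. Scn2b lies at 4.71 to 6.23 in 129S2 and AKR/J and at 11.38 to 11.82 elsewhere, and C3HeB/FeJ has the Mpeg1 values nearest to the pair.

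Genes of cilia, signalling, RNA editing and chromatin followed. Invs, inversin, a protein of the primary cilium needed for left-right asymmetry, had 7.02, 7.78 and 6.99 in 129S2 and 7.89, 7.36 and 7.63 in AKR/J, against 6.38 to 6.67 in the other strains. The 6 values fell above the rest but in separate steps, with array 129S2 2 among the AKR/J values and array AKR/J 2 lowest of its strain. The pooled difference was 0.89 ± 0.0932 (SE; adjusted p = 7.27e-06, limma).

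Adcy7, an adenylate cyclase that makes cyclic AMP, was higher by 0.64, and its 2 other probe sets by 0.44 and 0.51. Its 6 values of 7.49 to 7.77 lay just above the 6.59 to 7.44 of the other strains, of which A/J was highest. Adarb2, a brain relative of the adenosine deaminases that edit RNA, was also higher by 0.64, at 8.49 to 8.80 against 7.72 to 8.34 (limma, adjusted p = 1.57e-08). Its 2 other probe sets did not pass.

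Actl6b, the neuron-specific actin-related subunit of the BAF chromatin remodeller, was lower, at 8.17 to 8.72 in 129S2 and AKR/J and 9.13 to 9.29 in the other strains (difference -0.66 ± 0.056 SE, limma adjusted p = 5.38e-07). Znrf3, a ubiquitin ligase that removes Wnt receptors, was lower as well, with a difference of -0.54, while its second probe set differed by -0.03 and did not pass. Of 31 Wnt and Notch pathway genes, 1 passed (3.23% against 9.54% of all genes). Samd11, at 6.57 to 6.86 against 5.38 to 6.45 and a difference of 0.64, passed with the strains as they are but not with strain as the block (limma, adjusted p = 0.0895). In that gene C57BL/6J stood below all other strains, with a mean of 5.44.

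Metabolic and organelle genes were the next group. Timmdc1, an assembly factor of mitochondrial complex I, had 8.11, 8.04 and 8.22 in 129S2 and 8.35, 8.20 and 8.31 in AKR/J. The other strains had 7.09 to 7.74 with a median of 7.34, and the groups did not meet. Its difference was 0.85 ± 0.0561 (SE; adjusted p = 2.38e-08, limma). The structural subunits of complex I did not share it: 1 of 34 (2.94% against 9.54% of all genes) passed, Ndufs5, with a pooled difference of -0.34, and their median was -0.01. Ndufs5 was low on the 129S2 arrays 1 and 3, with 10.93 and 10.88, and not on the AKR/J arrays 1 and 3, with 11.86 and 11.70, beside 11.63 to 11.75 in the other strains. It had an adjusted p of 0.37 in limma with strain as the block.

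Uggt2, a glucosyltransferase that marks misfolded glycoproteins in the endoplasmic reticulum, was higher by 0.83, with 8.36, 7.84 and 8.35 in 129S2 and 7.57, 8.05 and 7.51 in AKR/J against 6.90 to 7.31. Arrays 129S2 2 and AKR/J 2 again lay inside the span between the other arrays of the pair. Its second probe set differed by -0.10 and did not pass.

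Thrsp, the lipogenic protein Spot 14, had 8.91 to 9.25 in 129S2 and AKR/J and 7.79 to 8.89 in the other strains, a difference of 0.77 that did not pass with strain as the block (limma, adjusted p = 0.0836). C57BL/6J and A/J lay close to the pair, with means of 8.80 and 8.86, and C3HeB/FeJ and DBA2/J far below, with 7.91 and 7.89. Lyplal1, a lysophospholipase-like enzyme, showed the same kind of spread, with means of 8.23 in A/J and 8.25 in DBA2/J against 7.57 in C57BL/6J and 7.24 in C3HeB/FeJ. Its difference of 0.61 had an adjusted p of 0.173 in limma with strain as the block.

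Lipg, endothelial lipase, was lower with a difference of -0.76 on the probe set used and -0.53 on another, but differed by 0.04 on the one brightest in brain. Adhfe1, an iron-containing alcohol dehydrogenase of mitochondria, was lower at 7.03 to 7.16, just under the 7.17 to 8.03 of the other strains, where C3HeB/FeJ was nearest with a mean of 7.28. Ggps1, which makes geranylgeranyl pyrophosphate for protein prenylation, had 8.49, 8.04 and 8.57 in 129S2 and 7.74, 8.16 and 7.75 in AKR/J against 8.67 to 8.96, a difference of -0.65 ± 0.0717 (SE; adjusted p = 1.3e-05, limma). Another of its probe sets passed with a difference of -0.66, while the remaining ones differed by -0.03 and -0.04 and did not pass.

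Ggps1 lies beside 2 further genes of the set without overlap. B3galnt2, a glycosyltransferase, and Tbce, a tubulin-folding cofactor, are its neighbours in the GRCm38.p6 gene table, with differences of -0.20 and -0.45. This was the 1 run of 3 adjacent genes in that set, among 18029 ordered genes. B3galnt2 did not pass with strain as the block (limma, adjusted p = 0.0786).

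Galc, galactosylceramidase, is the lysosomal enzyme that breaks down myelin galactolipid and is lost in Krabbe disease. It had 4.26, 7.67 and 5.0 in 129S2 and 7.93, 6.90 and 7.96 in AKR/J, against 8.02 to 8.2 in the other strains. The values of the AKR/J arrays 1 and 3 lay within 0.2 of the other strains, and the 129S2 arrays 1 and 3 at least 3 below them. The pooled difference of -1.49 ± 0.328 (SE) therefore averages a large 129S2 difference with a small AKR/J one, and its adjusted p in limma was 0.0079, but 0.285 with strain as the block. Its 2 other probe sets differed by 0.21 and -0.01 and did not pass. Of 32 lysosomal genes, 2 were higher and 3 lower (15.6% against 9.54% of all genes), among them Ctss, cathepsin S of microglia, with a difference of -0.33.

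The remaining genes of the 30 were H2-Bl, a class I histocompatibility gene with close relatives, Exd1, an exonuclease-domain gene, and Gm20754 and 2810021J22Rik, which have no described role here. They were higher by 0.79, 0.46, 0.73 and 0.43. H2-Bl had 6.87 on array 129S2 1 and 5.90 to 6.24 on the other 5 arrays, against 5.04 to 5.78 in the other strains.

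Of 8 choroid plexus markers tested, 6 were lower and none higher (75% against 9.54% of all genes), with a median of -0.22. None of them passed with strain as the block, where Sostdc1 had the lowest adjusted p, 0.0556 in limma. Sostdc1, a secreted BMP and Wnt antagonist, had 6.09 to 6.51 (median 6.30) in 129S2 and AKR/J and 6.31 to 7.52 (median 7.16) in the other strains, a difference of -0.74 ± 0.074 (SE; adjusted p = 4.23e-06, limma). Aqp1, the water channel of the plexus, had 5.48 to 5.97 against 5.72 to 6.56, a difference of -0.37. Ttr, transthyretin, the thyroid hormone carrier that the plexus secretes, had 13.18 to 13.51 against 13.29 to 13.60, a difference of -0.16 with an adjusted p of 0.0341 in limma.

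Kcnj13, Folr1 and Kl were lower with differences of -0.23, -0.22 and -0.21, while Clic6 and Otx2, at 0.00 and -0.05, did not pass. The same number, 6, was lower without arrays 129S2 2 and AKR/J 2. The list's mean level was 7.29 to 7.63 in 129S2 and AKR/J and 7.51 to 7.86 in the other strains, so the groups overlapped, and C3HeB/FeJ, with a mean of 7.57, was lowest of the 4. Fewer cells of a type and less RNA per cell cannot be told apart in whole tissue, and how much choroid plexus each dissection held was not tested. Ecrg4, a secreted peptide precursor made in the choroid plexus and not on that list, was lower with no overlap, at 6.99 to 7.64 against 7.67 to 8.43 (difference -0.72 ± 0.0652 SE, limma adjusted p = 1.25e-06), and both its other probe sets passed the same way.

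Microglial markers were divided. Of 11 markers, 4 were lower and none higher (36.4% against 9.54% of all genes), with a median of -0.15 (5 lower without arrays 129S2 2 and AKR/J 2). The 4 were chains of C1q and Trem2. C1qa, a chain of the complement initiator C1q, had 8.85 to 9.37 (median 9.08) in 129S2 and AKR/J and 9.40 to 9.75 (median 9.60) in the other strains, with no overlap, a difference of -0.47 ± 0.0538 (SE; adjusted p = 1.91e-05, limma). C1qb and C1qc, its neighbours in gene order, overlapped between the groups, with differences of -0.24 and -0.28, as did Trem2, a lipid receptor of microglia, with -0.25. C1qb and C1qc had adjusted p of 0.738 and 0.684 in limma with strain as the block, and C1qa 0.00784.

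The defining microglial genes Cx3cr1, Csf1r, P2ry12 and Tmem119 had differences of 0.10, 0.00, 0.13 and 0.04, and none passed. The list's mean level was 8.09 to 8.49 in 129S2 and AKR/J and 8.26 to 8.50 in the other strains. By strain, 129S2 was lowest with 8.18. AKR/J, with 8.35, lay beside C3HeB/FeJ with 8.34 and DBA2/J with 8.32, below A/J with 8.43 and C57BL/6J with 8.49. Mpeg1, which encodes the pore-forming protein perforin-2 of macrophages, had 6.51, 6.05 and 6.62 in 129S2 and 6.24, 6.09 and 6.24 in AKR/J. The other strains ranged from 6.66 to 8.0 with a median of 7.58. C3HeB/FeJ, with a mean of 6.75, came within 0.1 of the pair and the others did not. The difference was -1.15 ± 0.0693 (SE; adjusted p = 8.16e-09, limma).

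**Figure D4:**
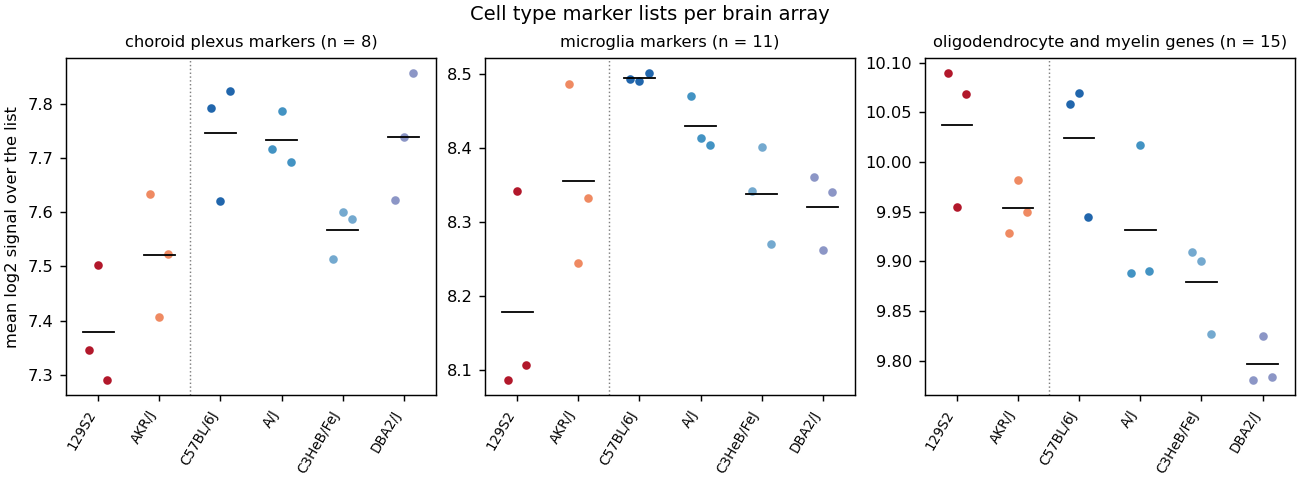
Mean log2 signal of choroid plexus, microglial and oligodendrocyte and myelin gene lists on each brain array, with 129S2 and AKR/J left of the dotted line; bars are strain means of 3 arrays. Choroid plexus means run from 7.29 to 7.63 in 129S2 and AKR/J and from 7.51 to 7.86 in the other strains, and all lists overlap between the groups.

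Of 25 interferon-stimulated genes, 4 were lower and none higher (16% against 9.54% of all genes), with a median of -0.06 (3 lower without arrays 129S2 2 and AKR/J 2). Iigp1, an immunity-related GTPase against intracellular parasites, had 4.93 to 5.32 in 129S2 and AKR/J and 5.37 to 5.94 in the other strains, a difference of -0.60 (limma, adjusted p = 9.43e-06) that its second probe set shared at -0.29. Oasl2, Igtp and Bst2 were lower with differences of -0.41, -0.23 and -0.20, all overlapping. Among 13 class I genes, H2-M3 and the shared light chain B2m were lower, with differences of -0.28 and -0.21, and H2-Q2 was higher by 0.27 at signals of 3.26 to 3.88 (23.1% of the list passed, against 9.54% of all genes). Class I genes have close relatives whose signals may mix.

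Of 15 oligodendrocyte and myelin genes tested, 4 were higher and none lower (26.7% against 9.54% of all genes), with a median of 0.08. Opalin, a membrane protein of mature oligodendrocytes, was higher by 0.28, Mal, a myelin proteolipid, by 0.19, Mog, an outer myelin glycoprotein, by 0.16 and Cnp, a myelin phosphodiesterase, by 0.13. The adjusted p in limma ran from 0.000299 for Mal to 0.0489 for Cnp. Mog and Cnp did not pass without arrays 129S2 2 and AKR/J 2, and none of the 4 passed with strain as the block. By strain, 129S2, with a list mean of 10.04, lay beside C57BL/6J, with 10.02, and AKR/J, with 9.95, beside A/J, with 9.93, while DBA2/J had the lowest, 9.80.

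Of 13 neuron markers 2 were higher, Nefm and Stmn2 (15.4% against 9.54% of all genes), of 11 astrocyte markers 1 was lower, the water channel Aqp4, and of 11 endothelial markers 1 was lower (9.09% of each list). Of 8 pericyte and smooth muscle markers 3 were lower, Tagln, Acta2 and Myh11 (37.5% against 9.54% of all genes), but 1 without arrays 129S2 2 and AKR/J 2. Of 6 olfactory bulb markers 3 were lower, Doc2g, Eomes and Omp (50% against 9.54%), and 2 without those arrays. With strain as the block, no member of these 5 lists passed in limma. The mean level of that list was 6.19 in 129S2 and 5.98 in AKR/J, against 6.73 in C57BL/6J and 5.92 to 6.07 in the other 3 strains.

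Hba-a1, the red cell globin chain tested, was at 3.87 to 4.00 in 129S2 and AKR/J and at 3.80 to 4.09 in the other strains. Immediate-early genes had a median of -0.21, with 2 of 21 lower (9.52%, beside 9.54% of all genes), Bdnf and Homer1; without arrays 129S2 2 and AKR/J 2, 1 was higher and 5 were lower. Proteasome, clock and heat-shock lists had 1 of 31 (3.23%), 2 of 19 (10.5%) and 1 of 13 (7.69%) members that passed, against 9.54% of all genes.

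Most of the 1736 genes, 1629, overlapped between the groups, and in many of them the other strains were themselves divided. The examples that follow were chosen after their values were seen. Pdxdc1 had 9.09 to 9.22 in 129S2 and AKR/J and a difference of 1.52, but C57BL/6J and A/J shared that level, with means of 9.17 and 9.14, and C3HeB/FeJ and DBA2/J had 6.03 and 6.29. Acer3, an alkaline ceramidase, was divided the same way, with 8.14 to 8.47 in 129S2 and AKR/J, means of 8.13 and 8.34 in C57BL/6J and A/J, and 5.74 and 5.93 in C3HeB/FeJ and DBA2/J. Baiap2l1 had 4.35 to 4.95 in 129S2 and AKR/J, with C57BL/6J and DBA2/J at the same level, 4.7 and 4.80, and A/J and C3HeB/FeJ far above, at 8.17 and 8.42. For Pdxdc1 the direction depends on the probe set read. Another of its probe sets differed by -1.87 (limma, adjusted p = 2.66e-14 over probe sets), while further ones differed by 0.38 and 0.48.

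Serpina3n, a secreted serine protease inhibitor that reactive astrocytes express, is the last of these examples. It had 10.29, 9.55 and 10.34 in 129S2 and 8.96, 9.96 and 8.95 in AKR/J, and the other strains had 7.32 to 9.05, of which DBA2/J, with a mean of 8.97, matched the lower AKR/J arrays. The pooled difference of 1.71 ± 0.135 (SE) passed in limma with strains as they are (adjusted p = 2.31e-07) and with strain as the block (0.0094). Gfap, the filament protein of astrocytes, differed by -0.09 and did not pass. Among all 1736 genes, both strain means lay above all 4 others in 502 and below them in 488. Choosing genes by a pooled difference favours such an order, and the share among all genes tested is not given here.

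The second question was how 129S2 and AKR/J brain differ from each other. With all 6 arrays no gene passed in limma, although 2263 genes (12.4%) had an unadjusted p under 0.05. Without arrays 129S2 2 and AKR/J 2, 1544 genes (8.49%) passed, with 2 arrays left in each strain. The following genes, the largest of these, were chosen after their values were seen.

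Ankrd33b, an ankyrin-repeat gene, had 4.81, 9.13 and 4.64 in 129S2 and 9.69, 8.33 and 9.16 in AKR/J. Its difference without the second arrays was -4.70 ± 0.203 (SE; adjusted p = 6.51e-10, limma), and with all arrays -2.87 (adjusted p = 0.207). Another bright probe set of Ankrd33b averaged 8.70 ± 0.238 over the arrays of 129S2 and AKR/J (SD, n = 6), against 7.63 ± 2.29 for the set used. A gap of that size between the strains was thus not seen by that other probe set. Gdpd3, a lysophospholipase D, had 9.67, 8.14 and 9.47 in 129S2 and 5.67, 9.06 and 5.73 in AKR/J, a difference of 3.87 without the second arrays and 2.27 with all of them. On the AKR/J arrays 1 and 3 it was at the level of the other strains, 5.51 to 5.84.

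Galc followed with a difference of -3.31 without the second arrays, Tmem267 with -3.21, 2010315B03Rik with -3.03 and Cthrc1, a secreted collagen-triple-helix protein, with -2.85. In each of these 6 genes array AKR/J 2 lay between the other arrays of the pair. These genes were chosen for wide gaps between arrays 1 and 3 of the strains, which favours such a place. Array 129S2 2 lay nearer on the log2 scale to the AKR/J arrays 1 and 3 than to its own strain in all of them but Gdpd3. Of the 30 genes described above, 8 differed between the strains without the second arrays, among them Invs at -0.76 and Uggt2 at 0.82.

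Pomt1, Uck1 and Swi5, adjacent in gene order and also chosen after their values were seen, show how a pooled difference can arise from 1 of the strains. Pomt1, a protein O-mannosyltransferase, had 7.56, 8.66 and 7.38 in 129S2 and 8.88, 8.06 and 8.75 in AKR/J, while the other strains had 7.21 to 7.48. The pooled difference of 0.88 combined AKR/J arrays well above the other strains with 129S2 arrays 1 and 3 close to them. In Uck1 and Swi5 the second arrays likewise lay between the others, with pooled differences of 0.41 and 0.48 and 129S2 minus AKR/J differences of -0.84 and -1.02 without the second arrays.

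The third question was whether these brain differences were seen in the other tissues of the same strains, where each tissue was fitted by itself. Of the 107 genes without overlap in brain, those that passed in the same direction numbered 55 in kidney (17.9% of all genes passed there, in either direction), 45 in testis (22.7%), 34 in liver (13.2%), 33 in lung (10.2%) and 25 in heart (5.63%). The opposite direction passed for 3 to 11 of the 107, the most in testis. In all, 16 passed the same way in each of the 5 other tissues and 30 in none. The shares of all genes tested that did so are not given here.

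Sdc4 passed in the same direction in each of the 5 other tissues, with differences from 2.08 in liver to 2.79 in lung. Timmdc1 had 0.70 to 1.46, Ggps1 -0.99 to -0.64, Pdgfd -2.47 to -0.30 and Galc -2.54 to -0.59 over the same tissues. Invs, Exd1 and 2810021J22Rik also passed the same way in each, so 8 of the 30 genes did.

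Since the 30 genes were chosen for large brain differences on these arrays, the count of them that passes the next test is partly set by that choice. To ask whether the difference in brain departed from that elsewhere, brain was set against the mean of the other 5 tissues in a fit of the arrays of all tissues with the animal as a random block. In that test 800 genes (4.4%) passed, among them 416 of the 1736, 42 of the 107 and 20 of the 30 genes. Scn2b had the largest value, -5.88 ± 0.102 (SE; adjusted p = 2.07e-61, limma). Its probe set averaged 4.59 to 6.14 in the other tissues of 129S2 and AKR/J and 4.58 to 6.31 in those of the other strains, so brain of the other 4 strains was where it was bright.

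Grik1, Actl6b and Mmp16 likewise had signals of 3.69 to 4.63 in the other tissues of both groups, and brain minus other tissues values of -1.94, -0.65 and -0.64. Pcdhb9 was lower in lung as well, with a difference of -2.69, and elsewhere was dim, at 2.79 to 3.71 in both groups. Its brain minus other tissues value was -1.63.

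Anxa5 and Mpeg1 differed in direction between tissues. Anxa5 was higher in brain by 0.71 and in testis by 0.39, but lower in liver, where it averaged 8.99 ± 0.0511 in 129S2 and AKR/J and 10.17 ± 0.128 in the other strains (SD, n = 6 and 12), and lower in kidney and heart, with differences of -0.36 and -0.22. Its brain minus other tissues value was 0.97 ± 0.0532 (SE; adjusted p = 4.33e-26, limma). Mpeg1 was lower in brain, liver and heart, with differences of -1.15, -0.78 and -0.36, and higher in lung, the tissue where it was brightest, by 0.44, and in testis by 0.25. Ecrg4, the plexus peptide, had a brain minus other tissues value of -0.88 and was higher in testis by 0.24.

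**Figure D5:**
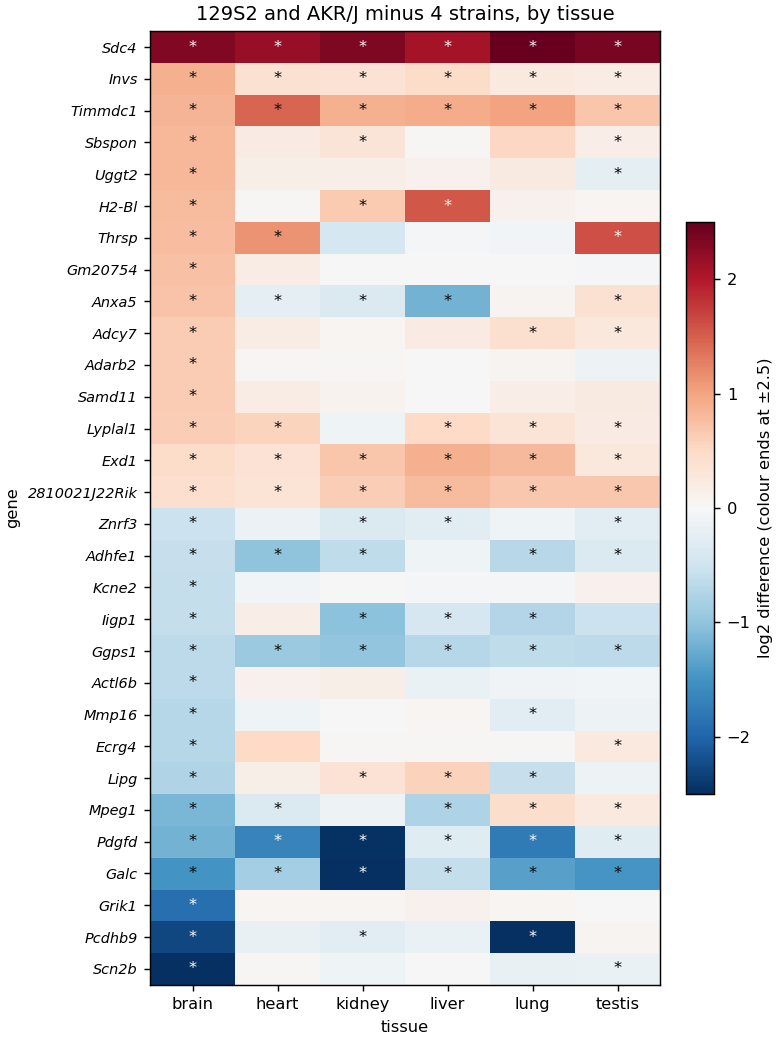
Log2 difference, 129S2 and AKR/J minus the 4 other strains, by tissue for the 30 genes (colour ends at 2.5 in both directions; a star marks an adjusted p under 0.05 in that tissue). Sdc4 is higher in all 6 tissues by 2.08 to 2.79, while Scn2b differs by -5.97 in brain and by -0.18 to 0.02 elsewhere.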

How the data were processed

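Each array measured total RNA of a tissue of male mice. Titles name 1 animal per array, which was assumed here although the labelling protocol speaks of pools. The authors deposited 1 table of log2 signals per probe set processed by RMA, which corrects background, normalizes quantiles and sums up the probes of a set, as the submitters' processing notes record. The version and the genome build behind the probe design are not given in the sources used here. RMA gives no detection call, so a low signal cannot be told from background.

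The table holds 45101 probe sets, and 64 controls, 932 listed for more than 1 gene and 9160 listed for none were dropped. The remaining 34945 name 1 gene each, and 34741 matched the GRCm38.p6 gene table, used only for names and gene order. Each of 18194 genes took its probe set with the highest mean over all arrays. For 1358 genes another set is brighter in brain. Replicate arrays shared at most 0.0643% of values, so none was a copy.

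Groups came from titles. In limma 3.58.1 (R 4.3.3) the 18 brain arrays were fitted with 1 mean per strain, and the contrast was the mean of 129S2 and AKR/J minus the mean of the other 4 strains, with a moderated test and Benjamini-Hochberg adjustment over all genes. A gene passed at an adjusted p under 0.05. The p-values measure the spread between arrays, which had a median SD of 0.0907 (12 residual degrees of freedom). The comparison with other tissues used the arrays of all tissues, with a random effect of the animal at a consensus correlation of 0.0168. Strain as a random block had a consensus correlation of 0.254. Since each strain lies wholly in 1 group, 6 strains carry the comparison. That fit still counts its residual degrees of freedom over arrays and uses 1 correlation for all genes. For a test on simulated data, each gene had 1 mean in all strains and independent noise, so spread between strains was absent. The pooled brain comparison over 18194 genes recovered 41 of 50 genes shifted by 0.25 and 50 of 50 shifted by 0.5. It made 9 calls among genes not shifted, and recovery with spread between strains was not tested.

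The members, the 42 gene lists and the tests were chosen with earlier results of these data known. Genes named are the 15 largest and 15 most negative differences that passed without overlap, up to 5 members of a list, the 6 largest without overlap against the other tissues, and runs of 3 adjacent genes. A rule for genes that differ between 129S2 and AKR/J with and without their second arrays named none. Alternatives were variance trend with robust fit, a filter on mean signal of 6, mean of probe sets, brightest brain probe set, repeated quantile normalization, median centring, group means, blocks for strain and replicate number, and leaving out arrays or strains.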

Additional observations from a re-analysis of the deposited data

Results flagged for a closer look

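In 4 of 120 genes checked, 1 of the 6 arrays of 129S2 and AKR/J stood far from the rest of them, which chance does in about 1 of 20 groups. H2-Bl was at 6.87 on array 129S2 1 and Wnt2 at 5.90 on array 129S2 3. Thrsp was at 8.91 on array AKR/J 3 and Tagln, a smooth muscle gene, at 6.89 on array AKR/J 2.

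In 20 of the 30 leading genes, the difference in brain departed from the mean difference in the other 5 tissues, with an adjusted p under 0.05 in limma. The 30 were chosen for large brain differences on these same arrays, so the count of 20 is partly set by that choice. The values below are brain differences minus that mean difference, and do not compare signal levels between tissues. Negative values were found for Scn2b at -5.88, Grik1 at -1.94, Pcdhb9 at -1.63, Mpeg1 at -1.03 and Ecrg4 at -0.88. Lipg at -0.84, Actl6b at -0.65, Mmp16 at -0.64, Kcne2 at -0.60 and Znrf3 at -0.31 were negative too. Positive values were found for Anxa5 at 0.97, Uggt2 at 0.75, Gm20754 at 0.71, Adarb2 at 0.64 and Sbspon at 0.58. Invs at 0.57, Samd11 at 0.50, Adcy7 at 0.42, H2-Bl at 0.31 and Lyplal1 at 0.31 were positive too.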

How the results depend on the processing

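The count of 1736 genes (872 higher, 864 lower) was 435 (209 and 226) when only 2 group means were fitted and 81 (30 and 51) with strain as a random block, both of which count the spread between strains as error. Leaving out 1 array gave 1347 to 1987 (690 to 1019 higher, 657 to 968 lower), and every other alternative stayed within 1.5 times. Median centring gave 802 higher and 934 lower. The 129S2 minus AKR/J count of 0 was 855 without array 129S2 2, 542 without array AKR/J 2 and 1544 without both, and 0 without any other array, so leaving out 1 array gave 0 to 855. The brain minus other tissues count of 800 was 604 to 804 under its alternatives. Replicate numbers did not pair the arrays (median correlation of deviations 0.0025 over 40 same-numbered pairs), and a replicate block gave 1379 genes (693 and 686) for the pooled brain difference and 0 for 129S2 minus AKR/J, and kept all 30 leading genes. Of 951 values of those genes under alternatives, 942 kept direction and call. With the probe set brightest in brain, Grik1 turned to 0.034, Lipg to 0.043 and Kcnma1 to 0.0073, and Scn2b lost its call. Gabra2 turned to -0.059 without C57BL/6J and Psmb6 to -0.0062 without DBA2/J.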

Other observations

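Single members of other lists also passed in brain, with values that overlapped between the groups. Slc18a2, the transporter that loads monoamines into vesicles, was higher by 0.52, at 6.53 to 7.06 in 129S2 and AKR/J and 5.55 to 6.86 in the other strains (limma, adjusted p = 0.0211). Htr3a, the serotonin-gated ion channel, was lower with a difference of -0.24 (limma, adjusted p = 0.00152). Cryab, a small heat-shock protein of glia, was lower with a difference of -0.45, at 9.38 to 10.59 against 10.08 to 10.77. In Cryab the 129S2 arrays 1 and 3 were low, with 9.65 and 9.38, and the AKR/J arrays 1 and 3, with 10.59 and 10.52, lay within the range of the other strains. Sc5d, a late enzyme of cholesterol synthesis, was lower with a difference of -0.54, but the other strains spread from 7.36 to 9.89, wider than the 7.53 to 8.96 of 129S2 and AKR/J. None of these 4 had an adjusted p under 0.05 in limma with strain as the block, where they ran from 0.131 to 0.744.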
